A study of Saccharomyces cerevisiae with 12 samples.

Results

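Baker's yeast grown in rich glucose medium at 24°C was compared with the same strain grown in the same medium at 32°C. The comparison rests on 4 of the 12 RNA-seq libraries of a study of the loss of heterozygosity, in which messenger RNA was measured to see whether transcription along a chromosome arm went with its instability. The groups were BY4743 in YPD at 24°C (2 libraries) and, set against it, BY4743 in YPD at 32°C (2 libraries); they were chosen by their sample labels, and nothing measured entered the choice. YPD holds yeast extract, peptone and glucose, so all 4 cultures had amino acids, vitamins and a fermentable sugar in the medium. BY4743 is a laboratory diploid that carries the same deletions in both groups: *URA3* and *LEU2* are missing, *HIS3* is deleted in part, and *MET17* (also called *MET15*) and *LYS2* are each deleted on only 1 of the homologs. Both groups were small cultures in plates taken in an advanced growth phase. The cell density at harvest is not given in the sources used here, so temperature and the stage that each culture had reached cannot be told apart. The 2 cultures of each temperature were started separately, per the study's methods.

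Growth temperature reaches the transcriptome of yeast by several known routes. Cooling stiffens membranes and slows folding and translation, and yeast is known for raising a small set of cell wall mannoproteins (the Tip and Tir proteins) and ribosome-associated proteins when it is chilled. Warming towards the upper end of the range calls on heat shock factor and its chaperones. Amino acid, phosphate and vitamin pathways are governed by their own activators (Gcn4 for amino acids at large, Met4 with Cbf1 for sulfur, Pho4 for phosphate), which respond to supply and demand.

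Libraries of the same temperature were alike. Their log2 values correlated across genes at r = 0.9938 between the cultures at 24°C and 0.9942 between those at 32°C (genes are not independent replicates), and the median gene differed by 0.076 and 0.09 on the log2 scale within the pairs at 24°C and 32°C. The spacing of low values implied 13900000 and 14000000 counted fragments in the libraries at 24°C, against 14400000 and 14900000 at 32°C, so depth was nearly even. *URA3* and *LEU2* were listed at 0 in all 4 libraries, as the strain's deletions require, while *HIS3* was measured. Genes known to be silent in a/alpha diploids were listed at differing levels: *MFA1* and *MFA2*, which encode a-factor, were at 0 in all 4 libraries, while *SAG1*, the alpha-agglutinin, had 22.2 and 23.0 FPKM at 24°C and 23.9 and 24.6 FPKM at 32°C. *STE2*, the alpha-factor receptor, had 5.5 and 6.12 FPKM at 24°C and 7.39 and 5.89 FPKM at 32°C, and *STE3*, the a-factor receptor, had 7.34 and 8.65 FPKM at 24°C and 7.81 and 6.39 FPKM at 32°C. Of 17 such genes that were tested, 2 rose and 3 fell (background over all tested genes: 6.79% rose and 20.8% fell).

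A gene was tested where its deposited value averaged at least 10 over the 4 libraries, which left 5997 genes, 5639 of them in the reference annotation. Under the deposited scaling, which sets library totals nearly equal, the median gene was 0.26 lower on the log2 scale at 24°C than at 32°C. Median-of-ratios scaling, which divides each library by the typical ratio of its genes to their mean, brings that median to 0. The direction of the calls moved with this choice: by limma with Benjamini-Hochberg adjustment at 0.05, 407 genes were higher and 2589 lower at 24°C with the deposited scaling (13.6% of the calls higher, 50% of genes called), and 1277 were higher and 1246 lower with median-of-ratios scaling (50.6% higher, 42.1% of genes called). A gene is therefore said to have risen or fallen at 24°C only where it passed with both scalings in the same direction. This held for 1653 genes, 27.6% of those tested: 407 rose (6.79%) and 1246 fell (20.8%), and no gene was called in opposite directions. Of these, 130 of those that rose and 214 of those that fell differed by at least 1 on the log2 scale. The shares of all tested genes that rose (6.79%) and fell (20.8%) are the background for each list count below. Values below are scaled counts (median of ratios). Log2 differences are YPD at 24°C minus YPD at 32°C on log2(scaled count + 1), n = 2 libraries each, with the standard error. That error comes from the limma fit over all 12 libraries. It pools a gene's spread within all 6 environments and is not the spread of the 4 YPD libraries alone. The adjusted p is the larger of those under the 2 scalings. A difference on the deposited scaling is about 0.26 lower than the one given. All messages were measured relative to the library, so a change in 1 gene's RNA and a change in the RNA of the rest cannot be told apart.

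**Figure D1:**
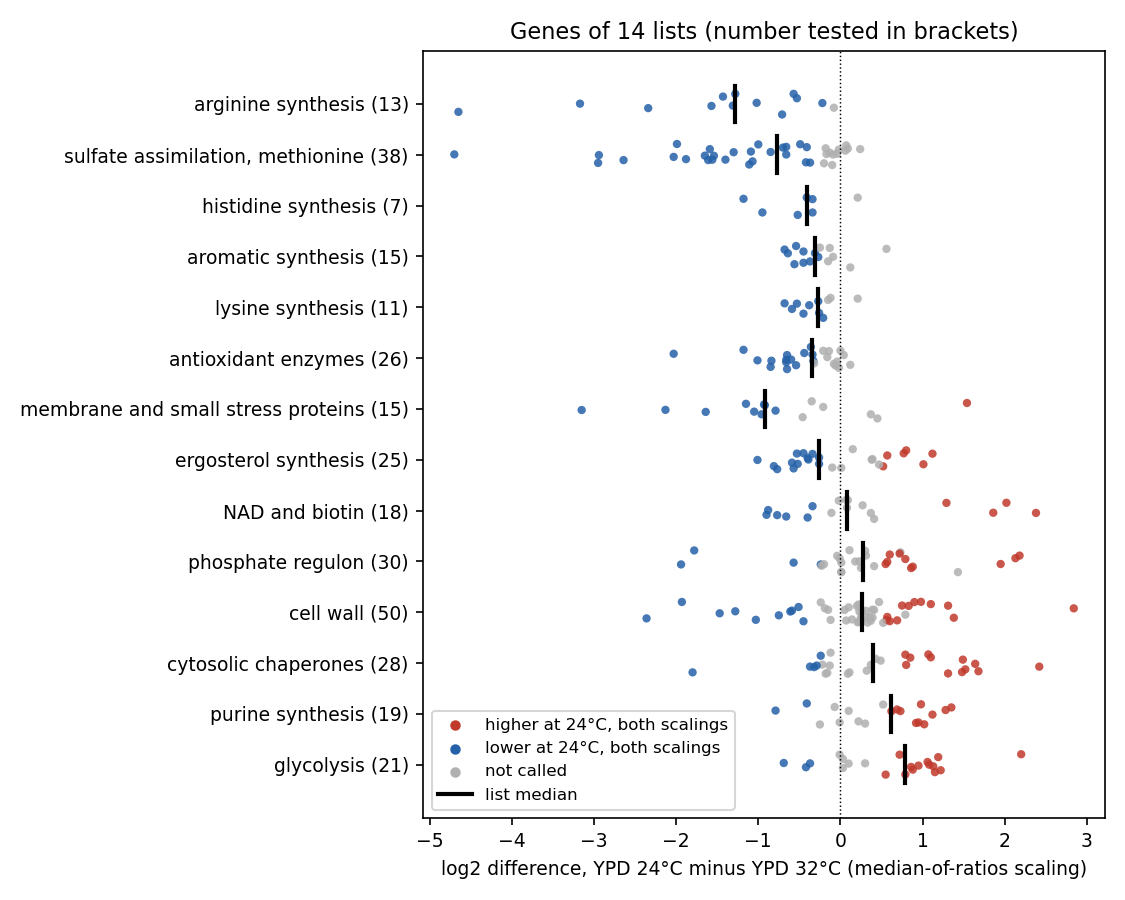
Log2 difference of each tested gene, YPD at 24°C minus YPD at 32°C, in 14 gene lists (median-of-ratios scaling; each point is a gene, the black bar is the list's median). Arginine synthesis (median -1.28) and sulfate assimilation (median -0.77) lie to the left, glycolysis (median 0.79) and purine synthesis (median 0.62) to the right.

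The genes with the largest falls and rises that met the naming rule (12 each way) came largely from nutrient pathways, the cell wall and sugar use. Of the 12 falls, *STR3*, *MET14* and *MET17* belong to sulfur metabolism and *ARG1* and *ARG3* to arginine synthesis; *HXT1* is a hexose transporter of low affinity and *SIP4* an activator of gluconeogenic genes. Of the 12 rises, *WSC4*, *CWP1* and *TIP1* encode proteins of the cell surface or wall, *PHO5* and *PHO11* acid phosphatases, *TNA1* the nicotinic acid permease, *HXT7* a hexose transporter of high affinity, *TDH2* a glyceraldehyde-3-phosphate dehydrogenase, *BTN2* a sorting factor for misfolded proteins, *CDA1* a chitin deacetylase of the spore wall and *SPS4* a gene induced in sporulation. Both libraries at 24°C lay on the same side of both libraries at 32°C for all 24 genes, as the rule asked.

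Sulfate assimilation and methionine synthesis fell. The pathway reduces sulfate to sulfide, joins it to a carbon skeleton made from aspartate to form homocysteine, and turns that into methionine, cysteine and S-adenosylmethionine. All 38 genes of the list were tested: 26 fell at 24°C, none rose and 12 passed in neither direction, with a median log2 difference of -0.77 (background: 20.8% of all tested genes fell, and their median is 0). As a share of the deposited total, the list took 0.734% and 0.722% of the libraries at 24°C, against 1.46% and 1.37% at 32°C.

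*STR3*, the cystathionine beta-lyase that makes homocysteine from cystathionine, had 94.1 and 95.3 scaled counts at 24°C, against 2678 and 2319 at 32°C, the largest fall among the named genes (log2 difference -4.70 ± 0.14, adjusted p = 2.05e-10; -4.97 on the deposited scaling). *MET17*, the enzyme that fixes sulfide into homocysteine, had 1819 and 1916 at 24°C, against 14458 and 14141 at 32°C (-2.94 ± 0.09, adjusted p = 2.05e-10; -3.20 deposited); a dubious reading frame, YLR302C, overlaps it, and the strandedness of the libraries is not given in the sources used here. *MET14*, the kinase of adenylyl sulfate, had 416 and 477 at 24°C, against 3660 and 3247 at 32°C (-2.95 ± 0.09, adjusted p = 2.28e-10; -3.21 deposited). In each of these genes the libraries of a temperature differed from each other by far less than the temperatures did.

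The other steps followed in the same direction. Among the enzymes that reduce sulfate, *MET3* differed by -1.54, *MET16* by -2.03, *MET10* by -1.61 and *MET5* by -1.07. Of those around homocysteine and methionine, *MET2* differed by -1.99, *MET6*, the methionine synthase, by -1.0 and *SAM2*, an S-adenosylmethionine synthetase, by -1.30. Permease genes moved too. The sulfate permease gene *SUL2* differed by -1.88 (428 and 437 scaled counts at 24°C, against 1727 and 1480 at 32°C). The methionine permease gene *MUP1* differed by -1.09. The paralogs split: *SUL1* (-0.18, adjusted p = 0.146) and *SAM1* (0.09, adjusted p = 0.604) did not pass with both scalings. *SUL1* passed as lower with the deposited scaling only (-0.45). Of the regulators, *MET28*, a cofactor of Met4, fell (-2.64 ± 0.17) and *MET32* fell (-0.66). *MET4* itself (-0.13, adjusted p = 0.209) and *CBF1* (0.24, adjusted p = 0.851) did not pass with both scalings. *MET4* passed as lower with the deposited scaling only (-0.39).

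Sequences ahead of many sulfur genes hold letters that Cbf1 or Met31/Met32 are known to bind, CACGTG and CTGTGG. Windows are shown for a pair of the genes that fell most and that hold a match. That of *MET17* holds both motifs and that of *MET14* holds CACGTG only. Windows of 300 bases, beginning 400 bases before the annotated start of the reading frame, were read from the R64 genome 5′ to 3′ on the gene's strand; capitals mark a match to CACGTG or CTGTGG on either strand. The window of MET17 is chrXII:732142-732441 on the plus strand (it lies partly in the overlapping frame YLR302C), and that of MET14 is chrXI:439486-439785 on the minus strand.
MET17: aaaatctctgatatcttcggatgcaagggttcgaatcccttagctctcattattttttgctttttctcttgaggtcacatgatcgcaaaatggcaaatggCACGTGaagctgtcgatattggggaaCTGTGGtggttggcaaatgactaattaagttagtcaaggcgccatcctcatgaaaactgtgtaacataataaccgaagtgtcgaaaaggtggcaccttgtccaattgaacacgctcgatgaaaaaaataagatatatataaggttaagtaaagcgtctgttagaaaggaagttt
MET14: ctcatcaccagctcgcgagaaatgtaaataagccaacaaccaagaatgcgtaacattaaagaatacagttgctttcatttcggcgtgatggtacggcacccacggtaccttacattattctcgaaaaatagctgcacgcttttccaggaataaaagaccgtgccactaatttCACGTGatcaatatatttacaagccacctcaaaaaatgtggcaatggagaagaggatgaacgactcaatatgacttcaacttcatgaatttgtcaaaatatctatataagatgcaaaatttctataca

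CACGTG stood in the windows of 16 of the 26 sulfur genes that fell and in 5 of the 12 that passed in neither direction, against 4.56% of 5988 windows of all protein-coding genes. CTGTGG stood in 17 of the 26 that fell and 2 of the 12 others, against 8.37% of all windows. Outside the sulfur list, it stood in 4 of the 12 genes of arginine synthesis that fell. A match describes the letters only; binding was not measured. The window of *STR3*, the gene with the largest fall, held neither.

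Genes of arginine synthesis fell, and those of arginase and ornithine transaminase, which break arginine down, rose. Synthesis runs from glutamate through ornithine and citrulline; ornithine carbamoyltransferase is *ARG3* and argininosuccinate synthetase is *ARG1*. Of 13 tested genes of synthesis and its regulation, 12 fell, none rose, and the median log2 difference was -1.28. The list's share of the library was 0.122% and 0.12% at 24°C, against 0.427% and 0.409% at 32°C.

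*ARG3* had 90.8 and 57.2 scaled counts at 24°C, against 2029 and 1662 at 32°C (-4.65 ± 0.19, adjusted p = 2.17e-09; -4.91 deposited). *ARG1* had 1242 and 1179 at 24°C, against 10824 and 10929 at 32°C (-3.17 ± 0.10, adjusted p = 2.28e-10; -3.43 deposited). The groups were far apart for both genes. *ARG56* (written *ARG5,6* elsewhere), whose precursor protein is cut into a pair of enzymes of ornithine synthesis, differed by -2.34, and *CPA1*, the small subunit of carbamoyl phosphate synthetase, by -1.57. *ARG8*, *ARG7* and *ARG4* differed by -1.43, -1.31 and -1.28. The regulators moved least: *ARG80* differed by -0.53 and *ARG81* by -0.22 with an adjusted p of 0.0494. *ARG82* (-0.08) passed as lower with the deposited scaling only (-0.35). *SIP4*, which fell as well (21.3 and 23.6 at 24°C, against 232 and 194 at 32°C; -3.19 ± 0.14), is the upstream neighbour of *ARG3* on chromosome X, on the same strand; the annotation places *SIP4* at 265926 to 268415 and *ARG3* at 268799 to 269815.

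Of 6 genes of arginine breakdown and its regulation, 3 rose and 3 passed in neither direction (median 0.43). *CAR2*, ornithine transaminase, had 2225 and 2138 scaled counts at 24°C, against 497 and 580 at 32°C (2.02 ± 0.11, adjusted p = 2.37e-08). *CAR1*, arginase, had 1694 and 1662 at 24°C, against 540 and 736 at 32°C (1.41 ± 0.11, adjusted p = 3.94e-06). Arginase releases urea, and *DUR12* (*DUR1,2*), the urea amidolyase, rose with them: 4042 and 4002 at 24°C, against 1008 and 1189 at 32°C (1.88 ± 0.10). *UME6*, a repressor of *CAR1* that is on the list as a regulator, rose by 0.58; its call was lost without replicate 1 at 24°C or replicate 1 at 32°C (0.25 and 0.31 on the deposited scaling). The proline-using genes *PUT1* (-0.36, adjusted p = 0.078) and *PUT2* (0.28, adjusted p = 0.885) did not pass with both scalings. *PUT1* passed as lower with the deposited scaling only (-0.62), and *PUT2* as higher with median-of-ratios scaling only. Of 26 tested genes under nitrogen catabolite repression, 2 rose and 13 fell (median -0.26).

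**Figure D2:**
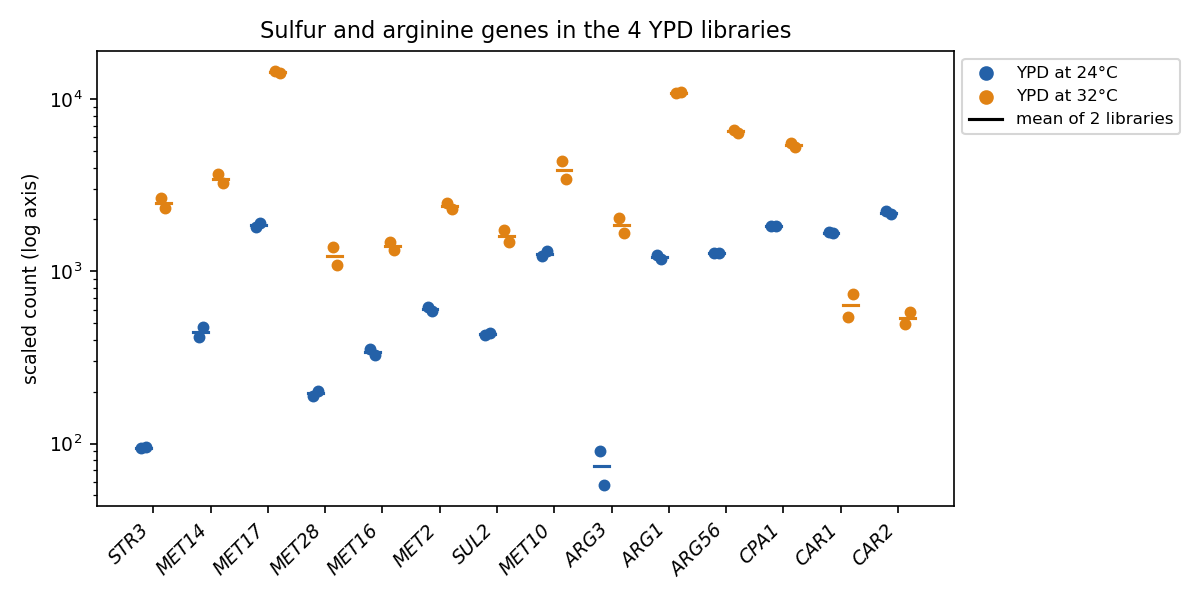
Scaled counts (log axis) of sulfur and arginine genes in the 4 YPD libraries; points are libraries, lines the mean of 2, with 24°C left of 32°C for each gene. The synthesis genes sit lower at 24°C, down to 57.2 for *ARG3*, and the breakdown genes *CAR1* and *CAR2* sit higher.

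Other amino acid pathways fell by smaller amounts. Histidine synthesis had 6 of 7 genes lower at 24°C (median -0.41), aromatic synthesis 9 of 15 (median -0.31) and lysine synthesis 8 of 11 (median -0.27), with none higher in any of the 3. *HIS3*, which is deleted in part in this strain and is counted here, differed by -1.18 and *HIS2* by -0.95. *TRP3* and *TRP2*, of the tryptophan branch, differed by -0.68 and -0.64, and *LYS5* and *LYS1* by -0.68 and -0.59. Branched-chain synthesis was closer to the rest of the genome, with 4 of 12 lower (median -0.03). Of 29 genes of other amino acids, 6 rose and 8 fell (median 0.01), where 6.79% of all tested genes rose and 20.8% fell. Several genes of glycine, serine and glutamate metabolism rose: *SHM2*, the cytosolic serine hydroxymethyltransferase, rose by 1.28, *SER3* by 1.07, the glycine cleavage genes *GCV2* and *GCV1* by 1.03 and 0.95, *GLT1* by 0.89 and *GDH1* by 0.80. *SER3* overlaps the noncoding gene *SRG1*, so its reads are uncertain, and the call of *GCV1* was lost without replicate 1 at 32°C (0.55 on the deposited scaling). *PCL5*, a cyclin that marks Gcn4 for degradation, fell by 1.22 on the log2 scale.

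Purine synthesis rose. It builds inosine monophosphate in a chain of Ade enzymes fed with glycine and with 1-carbon units, which Shm2 supplies. Of 19 tested genes, 10 rose and 2 fell (median 0.62; 6.79% of all tested genes rose). *ADE17*, which closes the ring, had 42754 and 41128 scaled counts at 24°C, against 14329 and 18852 at 32°C (1.35 ± 0.18, adjusted p = 0.000252). *SHM2* had 49770 and 48177 at 24°C, against 18425 and 22124 at 32°C (1.28 ± 0.16, adjusted p = 0.000148). *ADE57*, *ADE13*, *ADE1*, *ADE4*, *ADE6* and *ADE2* rose by between 0.73 and 1.12; the call of *ADE2* was lost without either library at 24°C or without replicate 1 at 32°C (0.44, 0.49 and 0.36 on the deposited scaling). The 2 that fell were *BAS1* (-0.79), an activator of the *ADE* genes, and *FCY2* (-0.41), the purine-cytosine permease. The list's share was 1.99% and 1.93% of the libraries at 24°C, against 1.38% and 1.53% at 32°C.

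The letters TGACTC, which Gcn4 and Bas1 are both known to bind, stood ahead of genes that moved in opposite directions. They were found in the windows of 10 of the 12 arginine genes that fell, 5 of the 6 histidine genes that fell and 9 of the 10 purine genes that rose, against 8.47% of all windows. Among sulfur genes they stood ahead of 10 of the 26 that fell, *STR3* included, and 1 of the 12 that did not pass. They also stood ahead of 4 of the 7 purine genes that passed in neither direction, and of 3 of 8 lysine and 3 of 9 aromatic genes that fell, against 2 of 3 and 3 of 6 that did not pass. Over all protein-coding genes called, they stood in 9.50% of the windows of those that rose and 12.5% of those that fell. The windows of ARG1 (chrXV:218811-219110, plus strand), ARG3 (chrX:268399-268698, plus strand, starting within *SIP4*) and ADE17 (chrXIII:509381-509680, minus strand) show it, with capitals for a match on either strand.
ARG1: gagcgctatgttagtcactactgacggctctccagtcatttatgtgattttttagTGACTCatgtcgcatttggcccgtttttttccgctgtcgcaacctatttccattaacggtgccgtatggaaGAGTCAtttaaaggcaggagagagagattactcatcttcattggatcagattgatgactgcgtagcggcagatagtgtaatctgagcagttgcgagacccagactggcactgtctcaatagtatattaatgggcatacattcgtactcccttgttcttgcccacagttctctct
ARG3: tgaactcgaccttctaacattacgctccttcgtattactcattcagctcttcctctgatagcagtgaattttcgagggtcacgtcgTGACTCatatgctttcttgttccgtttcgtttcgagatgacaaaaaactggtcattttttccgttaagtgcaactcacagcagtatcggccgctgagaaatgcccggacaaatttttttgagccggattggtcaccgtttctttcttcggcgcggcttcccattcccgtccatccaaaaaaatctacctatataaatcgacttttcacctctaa
ADE17: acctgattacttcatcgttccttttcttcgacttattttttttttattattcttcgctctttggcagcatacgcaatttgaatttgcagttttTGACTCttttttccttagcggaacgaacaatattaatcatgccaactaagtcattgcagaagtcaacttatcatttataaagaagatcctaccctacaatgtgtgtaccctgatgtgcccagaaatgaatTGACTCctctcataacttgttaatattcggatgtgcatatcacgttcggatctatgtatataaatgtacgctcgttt

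Phosphate genes that rose included those of the secreted phosphatases, the phosphate transporter Pho84 and polyphosphate synthesis. Of 30 tested genes, 10 rose, 4 fell and 16 passed in neither direction (median 0.28). *PHO5*, the main secreted acid phosphatase, had 5830 and 5901 scaled counts at 24°C, against 1313 and 1271 at 32°C (2.18 ± 0.07, adjusted p = 2.64e-09; 1.92 deposited). *PHO11* had 1458 and 1540 at 24°C, against 338 and 344 at 32°C (2.13 ± 0.16, adjusted p = 1.03e-06; 1.87 deposited), and *PHO12* rose by 1.95. These 3 phosphatase genes are close copies of each other, so the split of reads between them is uncertain. *PHO84*, the high-affinity phosphate transporter, had 59890 and 58272 at 24°C, against 31488 and 33436 at 32°C (0.86 ± 0.09, adjusted p = 0.00043). The subunits of the vacuolar polyphosphate polymerase rose together, *VTC1* by 0.88, *VTC3* by 0.79, *VTC2* by 0.72 and *VTC4* by 0.60. The call of *VTC1* was lost without replicate 1 at 32°C (0.44 on the deposited scaling).

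The phosphate genes that fell included a phosphate transporter and the activator of the regulon. *PHO89*, a sodium-coupled phosphate transporter of alkaline conditions, had 3221 and 3527 scaled counts at 24°C, against 11871 and 11226 at 32°C (-1.78 ± 0.10, adjusted p = 5.12e-08). *GPP2*, a glycerol-3-phosphatase of glycerol synthesis, differed by -1.94. *PHO4*, the activator of the regulon, fell by 0.57 on the log2 scale. Its partner *PHO2* passed with median-of-ratios scaling only (0.25, adjusted p = 0.0133, against -0.02, adjusted p = 0.90, on the deposited scaling). The inhibitor of the Pho80-Pho85 kinase, *PHO81*, rose by 0.55. That call was lost on leaving out replicate 1 or 2 at 24°C or replicate 2 at 32°C (0.29, 0.28 and 0.23 on the deposited scaling). *PHO80* (0.41, adjusted p = 0.419) and *PHO85* (-0.04, adjusted p = 0.671) did not pass with both scalings. *PHO80* passed as higher with median-of-ratios scaling only, and *PHO85* as lower with the deposited scaling only (-0.31).

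CACGTG, which Pho4 binds as well as Cbf1, stood in the windows of 8 of the 10 phosphate genes that rose, 2 of the 4 that fell and 7 of the 16 others. The same letters thus stood ahead of sulfur genes that fell and phosphate genes that rose. Over all protein-coding genes called, CACGTG stood in 3.96% of the windows of those that rose and 6.13% of those that fell. The windows of PHO5 (chrII:431052-431351, minus strand) and VTC3 (chrXVI:517119-517418, minus strand) are given with capitals for CACGTG; that of *PHO84* held none.
PHO5: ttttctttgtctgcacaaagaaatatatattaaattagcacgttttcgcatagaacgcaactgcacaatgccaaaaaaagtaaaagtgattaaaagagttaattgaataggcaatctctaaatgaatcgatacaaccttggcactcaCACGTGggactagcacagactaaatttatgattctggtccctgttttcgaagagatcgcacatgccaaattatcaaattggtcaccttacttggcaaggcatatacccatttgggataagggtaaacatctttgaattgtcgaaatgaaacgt
VTC3: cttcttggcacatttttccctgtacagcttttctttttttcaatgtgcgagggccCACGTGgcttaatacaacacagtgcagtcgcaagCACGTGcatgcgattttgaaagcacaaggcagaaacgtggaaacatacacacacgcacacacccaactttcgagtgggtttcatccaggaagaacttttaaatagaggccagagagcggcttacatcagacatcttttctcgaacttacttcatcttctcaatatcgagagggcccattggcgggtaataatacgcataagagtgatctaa

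Some genes of nicotinic acid import and of NAD synthesis from tryptophan rose. *TNA1*, the nicotinic acid permease, had 14846 and 15394 scaled counts at 24°C, against 2807 and 3021 at 32°C (2.38 ± 0.10, adjusted p = 4.21e-09; 2.11 deposited). *BNA4*, kynurenine 3-monooxygenase, had 5266 and 5336 at 24°C, against 1235 and 1386 at 32°C (2.02 ± 0.13, adjusted p = 3.98e-07). *BNA2*, the dioxygenase that opens the tryptophan ring, rose by 1.86 (the frame YJR079W overlaps it) and *NRT1*, a nicotinamide riboside transporter, by 1.29. *NPT1*, the nicotinate phosphoribosyltransferase that follows *TNA1*, fell (-0.66), and *BNA1* (0.09) did not pass. *BNA5* (0.41) and *BNA6* (0.27) passed as higher with median-of-ratios scaling only. Biotin genes on the same list were lower, *BIO4* by -0.90, *BIO3* by -0.88 and *BIO2* by -0.34. Over the 18 genes, 4 rose and 6 fell.

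Glycolysis rose. Of 21 tested genes, 13 rose and 3 fell, with a median log2 difference of 0.79 (0.52 on the deposited scaling). The list took 11.6% and 11.6% of the deposited total at 24°C, against 6.6% and 7.3% at 32°C, a gap wider than that between the libraries of either temperature.

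*TDH2* rose most, with 95695 and 95339 scaled counts at 24°C, against 18057 and 23911 at 32°C (2.2 ± 0.13, adjusted p = 5.98e-08; 1.94 deposited). The other enzymes from phosphofructokinase to pyruvate kinase rose by less: *ENO2* by 1.22, *PGK1* by 1.19, *PFK1* by 1.15, *TPI1* by 1.13, *FBA1* by 1.08, *TDH3* by 0.95, *PFK2* by 0.88, *CDC19*, the main pyruvate kinase, by 0.86 and *GPM1* by 0.55. *TDH1*, the paralog of *TDH2* and *TDH3* known from slow growth and stress, went the other way, with 11308 and 12315 at 24°C, against 18224 and 19947 at 32°C (-0.69 ± 0.12, adjusted p = 0.000667). The 3 *TDH* genes are similar in sequence, so reads shared among them may be misassigned. Of the hexose kinases, *HXK1* rose by 0.72, while *HXK2* (0.03) and *GLK1* (0.03) did not pass. Of 18 genes of ethanol and acetate metabolism, 3 rose, 5 fell and 10 passed in neither direction (median -0.19). Those that rose included both enzymes of the step from pyruvate to ethanol: *PDC1*, pyruvate decarboxylase, had 185833 and 180934 at 24°C, against 62587 and 76498 at 32°C (1.41 ± 0.18, adjusted p = 5.05e-05), and *ADH1* rose by 1.0. On the deposited scaling the call of *GPM1* was lost on leaving out any of the 4 libraries (0.23 to 0.34) and that of *HXK1* without replicate 2 at 24°C (0.28).

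**Figure D3:**
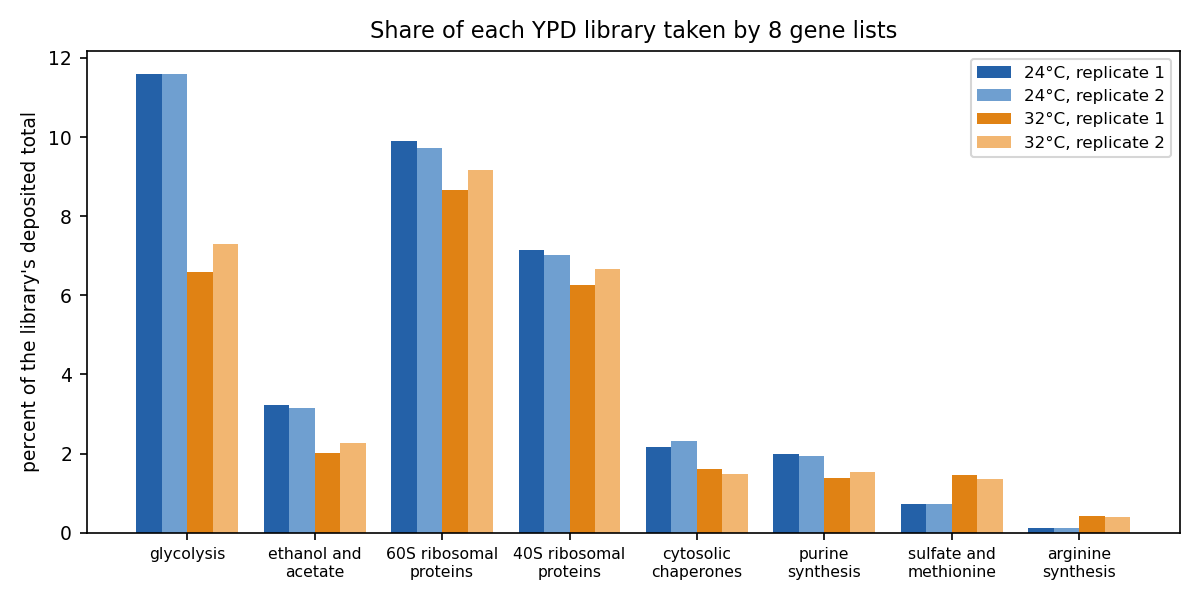
Percent of each YPD library's deposited total taken by 8 gene lists, with the 2 libraries at 24°C left of the 2 at 32°C. Glycolysis stands at 11.6% in both libraries at 24°C, against 6.6% and 7.3% at 32°C, and arginine synthesis at 0.122% and 0.12%, against 0.427% and 0.409%.

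Some hexose transporter genes changed in opposite directions, and uptake itself was not measured. *HXT1*, of low affinity, had 969 and 1081 scaled counts at 24°C, against 6560 and 6693 at 32°C (-2.69 ± 0.20, adjusted p = 3.67e-07; -2.96 deposited). *HXT7*, of high affinity, had 412 and 443 at 24°C, against 66 and 78.1 at 32°C (2.56 ± 0.19, adjusted p = 3.67e-07; 2.29 deposited); its near-identical copy *HXT6* rose by 1.06 (1.71 FPKM at 24°C, against 0.968 FPKM at 32°C), a call lost without replicate 1 at 24°C or replicate 1 at 32°C (0.44 and 0.41 on the deposited scaling), and reads cannot be divided between them with certainty. *HXT4* rose by 0.74. The transporters with the highest level per length were *HXT2* and *HXT3*. *HXT2* had a mean of 1360 FPKM at 24°C and 1380 FPKM at 32°C, and *HXT3* had 1070 FPKM at 24°C and 1440 FPKM at 32°C. Neither passed with both scalings, and *HXT3* passed as lower with the deposited scaling only (-0.42). *HXT2* had 36003 and 36851 at 24°C, against 29631 and 32080 at 32°C (0.24, adjusted p = 0.893), and *HXT3* 30008 and 30225 at 24°C, against 32591 and 34663 at 32°C (-0.16, adjusted p = 0.481). *HXT7* had a mean of 15.2 FPKM at 24°C and 3.07 FPKM at 32°C. Over 20 tested genes of sugar transport and sensing, 3 rose and 5 fell (background: 6.79% rose and 20.8% fell).

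Some genes used for growth without sugar fell. Of 17 genes of gluconeogenesis and the glyoxylate cycle, 7 fell and 1 rose (background: 20.8% of all tested genes fell and 6.79% rose). *PCK1* had 65 and 72.9 scaled counts at 24°C, against 152 and 155 at 32°C (-1.15), and *FBP1* 108 and 132, against 220 and 178 (-0.73). Respiratory genes were mixed: of 43 nuclear genes of the respiratory chain and ATP synthase, 9 rose and 4 fell. *NDE1*, the external NADH dehydrogenase, rose by 1.80 (4917 and 5275 at 24°C, against 1216 and 1759 at 32°C) and *HAP4*, the activating subunit of the Hap complex, by 1.10, while *NDE2*, the paralog of *NDE1*, differed by -0.78.

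Many cytosolic chaperone genes rose in the cooler culture. Of 28 tested genes, 12 rose and 5 fell (median 0.40; 6.79% of all tested genes rose). *BTN2* had 1855 and 2633 scaled counts at 24°C, against 530 and 322 at 32°C (2.42 ± 0.19, adjusted p = 9.11e-07; 2.15 deposited). Its paralog *CUR1* rose by 1.68. *SIS1*, an essential J-protein, had 12810 and 13782 at 24°C, against 4595 and 3941 at 32°C (1.64 ± 0.10, adjusted p = 2.15e-07). *HSC82*, the constitutive Hsp90, had 65249 and 66896 at 24°C, against 24048 and 23087 at 32°C (1.49 ± 0.10, adjusted p = 2.05e-07), and *HSP82*, the inducible copy, rose by 0.85, a call lost without replicate 2 at 24°C or replicate 2 at 32°C (0.37 and 0.34 on the deposited scaling). The Hsp70 genes *SSA2* and *SSB1* rose by 1.31 and 0.79, and the cochaperones *FES1*, *STI1* and *YDJ1* by 1.48, 1.07 and 0.80. The paralogous pairs of Hsp70 and Hsp90 are similar in sequence, and their split is uncertain.

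The small heat shock proteins went apart. *HSP42* rose (3306 and 5178 scaled counts at 24°C, against 1580 and 1314 at 32°C; 1.52 ± 0.18), and *HSP26* fell (264 and 320 at 24°C, against 1219 and 841 at 32°C; -1.80 ± 0.17). *HSP104*, the disaggregase, had 11612 and 16170 at 24°C, against 13978 and 11910 at 32°C, and the groups overlapped (0.09, adjusted p = 0.676). *HSF1*, the gene of heat shock factor, did not pass (0.11, adjusted p = 0.239). In mitochondria, *MDJ1*, *SSC1* and *HSP60* rose by 0.80, 0.76 and 0.71.

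Heat shock factor is known to bind runs of alternating TTC and GAA, and the arrangement TTC, any 2 bases, GAA, any 2 bases, TTC, searched on both strands, stood in the windows of 6 of the 12 cytosolic chaperone genes that rose, in none of the 5 that fell and in 4 of the 11 others, against 1.10% of all windows. It stood in 4.22% of the windows of all protein-coding genes that rose and in 0.662% of those that fell. The window of BTN2 (chrVII:772054-772353, plus strand) shows overlapping matches in capitals.
BTN2: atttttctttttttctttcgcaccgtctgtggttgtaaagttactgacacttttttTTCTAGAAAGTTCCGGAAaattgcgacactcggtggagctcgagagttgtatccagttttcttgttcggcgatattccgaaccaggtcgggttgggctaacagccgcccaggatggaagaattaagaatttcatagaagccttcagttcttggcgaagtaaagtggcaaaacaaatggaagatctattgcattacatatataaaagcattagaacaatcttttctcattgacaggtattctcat

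Small stress proteins and antioxidant enzymes fell in part. Of 15 tested membrane and small stress proteins, 9 fell and 1 rose (median -0.92). *TFS1* had 427 and 555 scaled counts at 24°C, against 1581 and 1467 at 32°C (-1.64), and *HSP12*, a membrane-stabilising protein that is also on textbook lists of cold-induced genes, had 220 and 201 at 24°C, against 453 and 370 at 32°C (-0.96 ± 0.13, adjusted p = 0.000107). *MRH1*, a plasma membrane protein, was the member that rose (1.54). Of 26 antioxidant genes, 15 fell and none rose (median -0.35). *TSA2*, the stress-induced peroxiredoxin, had 104 and 141 at 24°C, against 602 and 415 at 32°C (-2.03 ± 0.19); *TSA1*, its abundant paralog, had 9699 and 9944 at 24°C, against 15038 and 15951 at 32°C (-0.66 ± 0.08). *GRX1*, *PRX1*, *TRX2* and *TRX1* differed by -1.18, -1.01, -0.84 and -0.65. Of 20 genes of trehalose and glycogen metabolism, 3 rose, 4 fell and 13 passed in neither direction (median 0.02). The background over all tested genes was 6.79% higher and 20.8% lower.

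Cell wall genes rose more often than the background, and others fell at about the background share. *WSC4*, a surface sensor-like protein of the Wsc family, rose most of the 12 named rises, with 4018 and 4101 scaled counts at 24°C, against 524 and 613 at 32°C (2.84 ± 0.11, adjusted p = 8.45e-10; 2.57 deposited). *CWP1*, a wall mannoprotein, had 1211 and 1346 at 24°C, against 150 and 247 at 32°C (2.72 ± 0.16, adjusted p = 7.06e-08; 2.46 deposited). *TIP1*, the founding member of the temperature-shock-induced mannoproteins, had 11063 and 10588 at 24°C, against 1706 and 1593 at 32°C (2.71 ± 0.12, adjusted p = 3.98e-09; 2.45 deposited). No overlap was a condition of the naming rule for all 3.

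The rest of the mannoprotein list did not move as a block. Of 11 genes known from cold or low oxygen, *CWP1*, *TIP1*, *TIR2* (1.68) and *CWP2* (1.05) rose, *TIR4* (-0.78), *DAN4* (-0.58) and *PAU23* (-0.99) fell, and 4 did not pass; the call of *CWP2* was lost without replicate 1 at 24°C or replicate 1 at 32°C (0.60 and 0.65 on the deposited scaling). The list's median was -0.34. *TIR1*, the abundant cold-shock mannoprotein, had 11879 and 11367 scaled counts at 24°C, against 9799 and 6890 at 32°C (0.50, adjusted p = 0.261; 0.23 deposited, so its call depended on the scaling). Of the seripauperins, a subtelomeric family whose members are near-identical, 8 of 24 in the table passed the filter on low values and 4 of those fell; their split is uncertain.

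Glucan enzymes and wall integrity genes made up the remainder. Of 50 genes of the cell wall, 12 rose and 10 fell (median 0.26), where 6.79% of all tested genes rose and 20.8% fell. The share that fell was thus close to that of all tested genes. Among those that rose were the glucanases and glucan transferases *EXG1* (1.38), *GAS3* (1.31), *GAS5* (1.10), *SCW4* (0.98) and *BGL2* (0.83) and the abundant wall protein *SED1* (0.90). Among those that fell was *GSC2*, the stress-induced glucan synthase. It had 2115 and 2203 scaled counts at 24°C, against 11208 and 10999 at 32°C (-2.36 ± 0.08, adjusted p = 3.65e-10). The yapsin protease genes *YPS3* and *YPS1* differed by -1.93 and -1.47. *SLT2*, the kinase of the cell wall integrity pathway, differed by -0.61. Activity of that pathway was not measured. *SCW10*, a paralog of *SCW4*, fell (-1.28).

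Membrane lipid genes were likewise divided. Of 25 ergosterol genes, 6 rose and 13 fell (median -0.26). The genes that rose were *ERG4* (1.12), *ERG5* (1.01), *ERG11* (0.80), *ERG3* (0.77), *ERG24* (0.57) and *HMG1* (0.52); except for *HMG1*, which acts early, they encode steps from lanosterol on. Among those that fell were genes of the route from acetyl-CoA to squalene epoxide, *ERG10* (-0.59), *ERG13* (-0.57), *ERG12* (-0.52), *ERG9* (-0.45) and *ERG1* (-0.34), and so did the later-acting *ERG27* (-1.01), *ERG28* (-0.81) and *ERG26* (-0.77). *OLE1*, the only fatty acid desaturase of this yeast and a textbook cold-induced gene, was lower at 24°C, with 21603 and 21813 scaled counts, against 30596 and 30267 at 32°C (-0.49 ± 0.17, adjusted p = 0.038). *MGA2*, the membrane-bound activator of *OLE1*, differed by -0.66, and *FAS1* and *FAS2* by -0.38 and -0.60. Of the 10 genes of the textbook cold list, 4 rose (*TIP1*, *TIR2*, *LOT5* by 0.96 and *TMA19* by 0.61), 2 fell (*HSP12* and *OLE1*) and 4 did not pass, a median of 0.25. The calls of *ERG24* (0.27 to 0.33) and *HMG1* (0.24 to 0.28) were lost on leaving out any of the 4 libraries, and that of *TMA19* without either library at 24°C or without replicate 1 at 32°C (0.28 to 0.35), all on the deposited scaling.

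Some iron and zinc transporter genes rose. *FTR1*, the high-affinity iron permease, had 7767 and 7513 scaled counts at 24°C, against 1663 and 2269 at 32°C (1.97 ± 0.15, adjusted p = 8.86e-07), and its partner oxidase *FET3* rose by 1.71. *SIT1*, a siderophore transporter, rose by 1.48 and *SMF3*, a vacuolar iron exporter, by 0.97. Over 32 genes of the iron list, 6 rose, 5 fell and 21 passed in neither direction, with a median of 0.15. The background over all tested genes was 6.79% higher and 20.8% lower. Of 19 zinc genes 4 rose, *ZRT1* (1.08), *ZRC1*, *DPP1* and *ADH1*, and 6 fell, with *IZH4* at -1.79; the call of *DPP1* was lost without either library at 24°C or without replicate 2 at 32°C (0.33 to 0.37 on the deposited scaling).

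Most ribosomal protein genes passed in neither direction (over all tested genes, 6.79% rose and 20.8% fell). Of 57 tested genes of the small subunit 10 rose, 1 fell and 46 did not pass (median 0.38), and of 78 of the large subunit 20 rose, none fell and 58 did not pass (median 0.32). These 2 medians fall to 0.11 and 0.06 on the deposited scaling. Of 136 ribosome biogenesis genes none rose and 11 fell, with a median of 0.07. Of 25 cyclin and cell cycle genes, 9 rose, 4 fell and 12 passed in neither direction. Among those that rose were some with roles in mitosis, *CLB1* by 1.05, *CLB2* by 1.04, *SWI5* by 0.85, *CDC5* by 0.80 and *CDC20* by 0.78, while the G1 cyclin genes *CLN2* and *PCL1* differed by -0.33 and -0.88 and *CLN3* by 0.63, a call lost on leaving out any of the 4 libraries (0.32 to 0.41 on the deposited scaling). Of 10 histone genes 5 rose and none fell (median 0.52), with *HHT1* at 1.13.

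The study's own interest was mitotic recombination. Of 27 core recombination genes, 9 fell and none rose (median -0.16), a share of falls above the 20.8% of all tested genes but of small size for most. *RMI1*, of the helicase-topoisomerase complex that dissolves joint molecules, had 360 and 361 scaled counts at 24°C, against 841 and 811 at 32°C (-1.19 ± 0.07, adjusted p = 1.11e-07), and its partner *TOP3* had 240 and 208 at 24°C, against 370 and 408 at 32°C (-0.80). *RAD59* differed by -1.04 and *RAD54* by -0.26. *DMC1*, a recombinase of meiosis, differed by -1.25 at a low level (89.6 and 87.5 at 24°C, against 207 and 218 at 32°C).

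The remaining named genes belong to no list above. YJL213W, a gene of unknown function, had 337 and 319 scaled counts at 24°C, against 3547 and 3055 at 32°C (-3.32 ± 0.15, adjusted p = 5.51e-09; -3.59 deposited). YOR338W, also uncharacterised, had 110 and 97.6 at 24°C, against 1019 and 896 at 32°C (-3.19 ± 0.13, adjusted p = 2.17e-09; -3.46 deposited). *FHN1*, a membrane protein related to Nce102, differed by -2.94 ± 0.23, *YPT53*, a Rab GTPase of endosomes, by -2.68 ± 0.27 and *GTO3*, an omega-class glutathione transferase, by -2.68 ± 0.13. *SPS4* had 797 and 709 at 24°C, against 120 and 129 at 32°C (2.59 ± 0.15), *CDA1* 230 and 258 at 24°C, against 49.9 and 38.6 at 32°C (2.44 ± 0.26), and *COS12*, of a subtelomeric family with close copies, 329 and 360 at 24°C, against 77.6 and 79 at 32°C (2.12 ± 0.50, adjusted p = 0.00748). Without replicate 2 at 24°C the adjusted p of *COS12* on the deposited scaling was 0.052.

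Mitochondrial transcripts were scarce in all 4 libraries, and 3 of the 22 in the table passed the filter. The large mitochondrial ribosomal RNA (21S_RRNA) had 172.5 and 79.95 deposited counts at 24°C, against 9.723 and 10.32 at 32°C, and the small one (15S_RRNA) had 101.1 and 42.97 at 24°C, against 3.889 and 5.628 at 32°C. These 3 transcripts passed the filter largely through the libraries at 24°C, where they were high, so the filter itself favoured that direction and no result is drawn from it. The libraries at 24°C were themselves far apart, and the gene of the large one overlaps the frame *SCEI*. *COX1*, the gene of cytochrome c oxidase subunit 1, was listed at 1.98 and 0 deposited counts at 24°C, against 0 and 0.934 at 32°C, so no direction can be read for it.

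The series holds another comparison of a cooler with a warmer culture, SC at 30°C against SC at 37°C (synthetic complete medium, 2 libraries each), which shares no library with the YPD cultures. Its temperatures, span and medium differ, so the 2 sets are placed side by side. There, 1386 genes (23.1%) passed with both scalings, 698 higher at 30°C (11.6%) and 688 lower (11.5%). The difference between the 2 contrasts, tested as an interaction, passed for 1716 genes with both scalings (28.6%), and 288 genes (4.80%) were called in opposite directions in the 2 media with the interaction called.

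Several of the genes with the largest changes in YPD differed little in SC. *STR3* differed by -4.70 in YPD and -0.01 in SC, *WSC4* by 2.84 and 0.01, *TNA1* by 2.38 and 0.00, and *BTN2* by 2.42 and 0.02; the interaction passed for all 4. Of the 24 genes, *MET17*, *GTO3*, *HXT7* and *PHO5* were called in opposite directions in the 2 media. Others were called in the same direction in both media: *ARG3*, YJL213W and YOR338W lower in the cooler culture, and *SPS4*, *PHO11* and *COS12* higher. *COS12* was low in SC (21.4 and 11.5 scaled counts at 30°C, against 2.86 and 3.96 at 37°C). *MET17* had 3956 and 4131 scaled counts in SC at 30°C, against 1735 and 1472 in SC at 37°C.

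Whole lists differed between the media as well. Lysine synthesis, with 8 of 11 genes lower at 24°C in YPD, had 9 of 11 higher at 30°C in SC (median -0.27 in YPD and 1.98 in SC), and the interaction passed for 11 of 11; *LYS20* differed by -0.53 in YPD and 3.95 in SC. Cytosolic chaperones, with 12 of 28 higher at 24°C in YPD, had 11 of 28 lower at 30°C in SC: *HSC82* differed by 1.49 in YPD and -0.53 in SC, and *HSP82* by 0.85 and -2.1. Antioxidant genes, none of them higher at 24°C in YPD, included 13 of 26 that were higher at 30°C in SC. The iron transporters *FTR1* and *FET3* were higher in the cooler culture in both media (1.73 and 1.39 in SC), and the interaction did not pass for either.

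**Figure D4:**
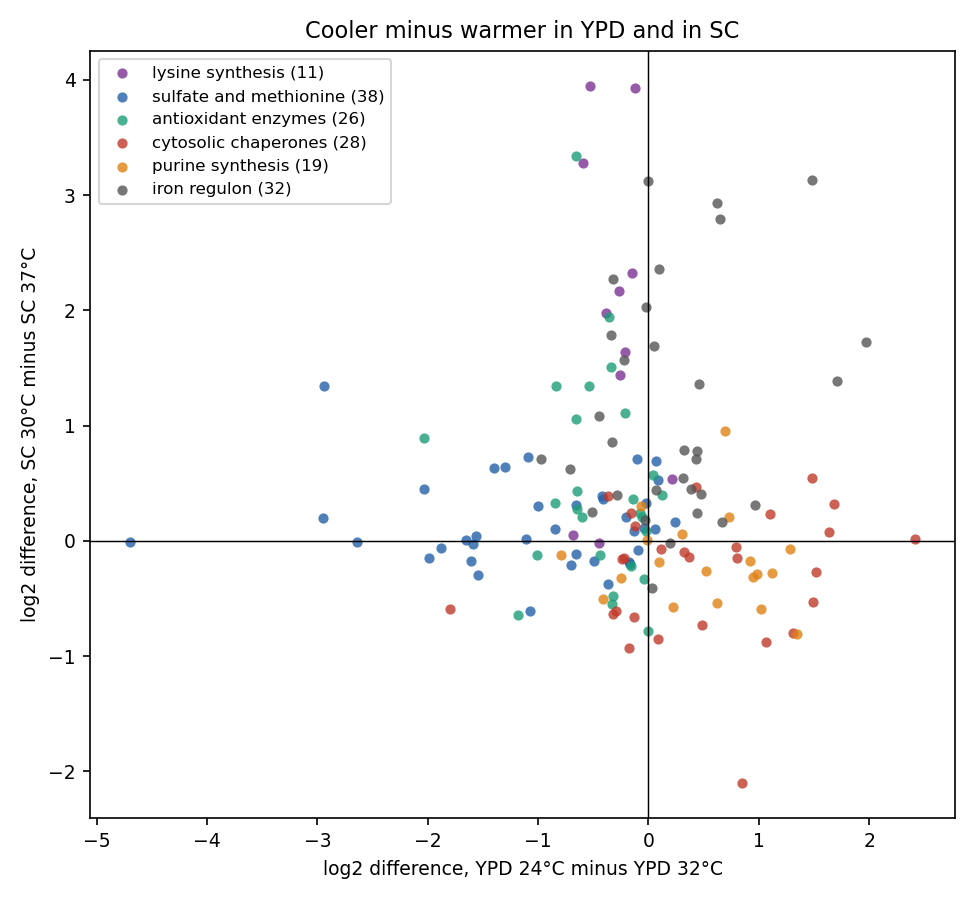
Log2 difference in YPD (24°C minus 32°C, horizontal) against that in SC (30°C minus 37°C, vertical) for the tested genes of 6 lists (median-of-ratios scaling; each point is a gene). Lysine genes reach 3.95 in SC (*LYS20*) and go down to -0.68 in YPD (*LYS5*), and chaperones reach from 2.42 in YPD (*BTN2*) down to -2.1 in SC (*HSP82*).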

How the data were processed

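RNA of diploid BY4743 cultures in 6 environments, 2 libraries each, was extracted as total RNA and sequenced; the library kit and strandedness are not given in the sources used here. Per the study's methods, the authors aligned reads with HISAT2 to the Ensembl genome (R64) and quantified them with Cufflinks and Cuffnorm; SAMtools 1.9 is named in the submitters' processing notes. The deposited count table holds Cuffnorm's library-size-normalized counts, a signal that is partly fractional, and the deposited FPKM table holds the same divided by transcript length. Low values were not whole multiples of a read often enough to restore read counts, so limma 3.58.1 (R 4.3.3) was used in place of a count test, on log2(value + 1) with all 12 libraries in 1 fit, an environment term, a variance trend and Benjamini-Hochberg adjustment over 5997 genes. Of 7127 identifiers 6169 matched the R64 annotation; the 958 others took 0.72% to 1.68% of a library. Promoter windows came from RefSeq R64 and tables were handled with Python 3.11.15, pandas 2.3.3, numpy 2.4.6 and matplotlib 3.10.9. The YPD contrast of the main fit was tested on simulated data without a shift of the median gene. The SC contrast, the interaction, the rule of both scalings and the alternative fits were not simulated.

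The genes named with full statistics were those that passed with both scalings, had a mean of at least 100 and did not overlap between the groups, ranked by log2 difference, 12 in each direction; members of gene lists were named for their roles. The lists were chosen with earlier results of these data known. Replicate numbers were not taken to pair the libraries. The deviations of same-numbered libraries at 24°C and 32°C correlated at -0.015 across genes. Over the 15 pairs of environments this correlation ran from -0.124 to 0.257. A batch shared by replicate number was not tested. Alternatives were another pseudocount (0.5, 5), another filter (none, 50), scaling without the 50 genes of highest mean, the FPKM table, a replicate block, no variance trend, the 4 YPD libraries alone and leaving out each library.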

Additional observations from a re-analysis of the deposited data

Results flagged for a closer look

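Among the named genes, some were called in opposite directions in YPD (24°C minus 32°C) and SC (30°C minus 37°C), and the difference between the contrasts, tested as an interaction in limma with both scalings, passed for each. The values in brackets are that difference on the log2 scale, YPD minus SC, and the temperatures and spans differ between the media. The causes were not tested.

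Genes lower at 24°C in YPD and higher at 30°C in SC were led by amino acid genes, *LYS20* (-4.48), *LYS1* (-3.86), *LYS2* (-2.36), *MET17* (-4.28), *SAM2* (-1.95), *MUP1* (-1.82) and *TRP3* (-0.96). Biotin and phosphate genes with this pattern were *BIO3* (-3.55), *BIO4* (-2.92), *BIO2* (-1.66), *PHO89* (-3.25) and *PHO4* (-1.21). Those of redox defence were *TSA2* (-2.92), *TSA1* (-1.72), *TRX2* (-2.17), *TRX1* (-1.08) and *GTO3* (-3.52). Those of membranes, wall and mitochondria were *ERG27* (-1.68), *ERG10* (-1.11), *FAS2* (-1.10), *FAS1* (-0.86), *TIR4* (-2.05), *DAN4* (-1.06) and *NDE2* (-1.65).

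Genes higher at 24°C in YPD and lower at 30°C in SC included the chaperone and stress genes *HSP82* (2.96), *SSA2* (2.11), *HSC82* (2.02), *STI1* (1.95), *HSP60* (1.35) and *MRH1* (1.97). Genes of sugar use were *HXT7* (3.25), *HXT4* (2.11), *HXT6* (2.1), *PFK1* (1.59), *PFK2* (1.37) and *HAP4* (2.14). The others were *PHO5* (2.91), *ADE17* (2.16), *ADE13* (1.61), *GAS3* (1.94), *SWI5* (1.25), *CLN3* (1.15) and *UME6* (1.10).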

How the results depend on the processing

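The number of genes called with both scalings (1653) stayed within 1.5 times under pseudocounts of 0.5 and 5, other filters, no variance trend and the 4 YPD libraries alone (2085). Without 1 library it ranged from 1136 to 1222, and its higher calls (407) from 266 to 299, the lowest without replicate 2 at 24°C. Scaling decided the split of calls: against 407 higher and 2589 lower with the deposited scaling, median-of-ratios scaling gave 1277 and 1246, and scaling without the 50 genes of highest mean gave 740 and 1561. On the deposited scaling, leaving out a library gave 1846 to 2400 calls (lowest without replicate 1 at 32°C), 267 to 300 higher and 1565 to 2100 lower; with median-of-ratios scaling it gave 1703 to 1880 calls, 845 to 957 of them higher. The interaction count (1716) ranged from 1359 to 1471. With the replicate block, 1646 genes were called with both scalings, 1605 of them shared with the fit without it. The sources used here do not say that the numbers pair the samples.

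Of 2130 values of 213 named genes under alternatives, 2025 kept direction and side of the threshold on the deposited scaling, 67 lost the call, 14 gained it and 24 changed sign, all of them genes that had not passed with both scalings. With median-of-ratios scaling the sign changed for *GLK1* and *HXK2* (0.03 each), *STE2* (0.08), *BNA1*, *HSP104* and *SAM1* (0.09 each), *HSF1* (0.11), *SAG1* (0.16), *CBF1* and *HXT2* (0.24 each) and *PHO2* (0.25). Scaling without the 50 top genes gave *PHO2* 0.14, *SAG1* 0.05, and *CBF1* and *HXT2* 0.13 each. Some genes passed with a single scaling. *PHO2*, *PHO80*, *PUT2*, *BNA5*, *BNA6* and *TIR1* passed as higher with median-of-ratios scaling only. *SUL1*, *MET4*, *HXT3*, *PUT1*, *ARG82* and *PHO85* passed as lower with the deposited scaling only. Leaving out each library in turn gave *BNA6* -0.03 to 0.05, *PUT2* -0.02 to 0.05, *HSP104* -0.42 to 0.07, *PHO2* -0.07 to 0.04, *CBF1* -0.08 to 0.03, *HXT2* -0.05 to 0 and *TIR1* -0.05 to 0.52. The cause was not tested. For single genes, libraries were left out on the deposited scaling only, where falls pass more easily. Falls close to the threshold with median-of-ratios scaling were therefore not rechecked on that scaling. Such falls were *OLE1* (adjusted p = 0.038 in limma), *RAD54* (0.0415), *BIO2* (0.0441) and *ARG81* (0.0494), among others. An arm left with 1 library is assumed to vary like the others. Depth limits low genes such as *SIP4* and the mitochondrial transcripts.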
